A study of Mus musculus with 144 samples.

Results

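The genes described here encode the proteins of the mitochondrial ribosome. They were taken as the mouse protein-coding genes whose symbols begin with Mrpl (large subunit) or Mrps (small subunit) followed by a number, without pseudogenes, and 78 of the 55359 genes in the count files met this rule, 49 with Mrpl and 29 with Mrps symbols. A further 5 genes with symbols of the same form are pseudogenes and were left out. RNA-Seq counts were available for 36 groups of primary mouse hepatocytes with 4 libraries each, from cultures given DMSO as vehicle or 10 nM TCDD (2,3,7,8-tetrachlorodibenzo-p-dioxin, a ligand of the aryl hydrocarbon receptor, AHR) and taken 2, 4, 8 or 12 h later, or at 24, 48, 72, 96 or 120 h. The study asked how the response to TCDD depends on a dioxin response element (DRE), the DNA site bound by the AHR, at the Pkm gene.

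The WT libraries carry the strain label C57BL/6NCrl and the DRE libraries the strain label Pkm-delta-DRE with the genotype DRE-null, a line in which a Pkm DRE is deleted in the whole body. All donors were male and 28 days old by the labels, and all cultures were kept on type I collagen with insulin, transferrin, selenium and dexamethasone. The labels name neither animals nor isolations, so the p-values given here measure the spread between libraries, which may be technical. Pkm went against the genotype labels: at 8 h it was at 45.5 to 89.6 CPM (counts scaled to the size of the library) in WT vehicle and 28.7 to 60.4 CPM in WT TCDD libraries, and at 41.2 to 90.02 CPM in DRE vehicle and 116.1 to 172.4 CPM in DRE TCDD libraries. Its TCDD libraries thus lay above vehicle where the DRE is labelled as deleted and not where it is labelled as present. WT and DRE therefore stand for the labels of the libraries throughout.

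Some libraries stood apart. By Cyp1a1, a gene induced through the AHR, vehicle libraries of WT at 48 h (replicate 1, 3253 CPM) and 96 h (replicate 3, 1641 CPM) were high, and TCDD libraries of WT at 2 h (replicate 4, 1.36 CPM) and 72 h (replicate 4, 27.6 CPM) were low. Across 9489 genes other than the members, DRE vehicle replicate 4 at 4 h resembled the WT vehicle group at 96 h (r = 0.982) more than its own group (0.660), and DRE vehicle replicate 4 at 96 h resembled the DRE TCDD group at 4 h (0.983) more than its own (0.641). DRE vehicle replicate 1 at 72 h resembled the WT vehicle group at 120 h (0.979, against 0.885 for its own), and all but these 3 libraries were nearest to a group at their own or a neighbouring time. WT TCDD replicate 1 at 8 h had the largest share of uniquely mapped pairs on no gene, 21.9%, and WT TCDD replicate 1 at 96 h had 63.3% of its stranded counts on one strand, against a median of 50.6%. These 9 libraries are called doubted here, and the counts without them are given beside the comparisons whose fits hold any of them and change. WT TCDD replicate 4 at 4 h is not among them. Its Cyp1a1 was 11.2 CPM, against 121.5 to 314.5 CPM in the rest of its group and up to 4.87 CPM in WT vehicle. It resembled the WT vehicle group at 4 h (r = 0.972) more than its own group (0.906), and no fit leaves it out together with the doubted libraries.

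The mitochondrial ribosome translates the few mRNAs of the mitochondrial genome, which encode core subunits of the respiratory chain and the ATP synthase. Its own proteins are all encoded in the nucleus, made by cytosolic ribosomes and imported, and hepatocytes hold many mitochondria. Promoters of such genes often carry sites for nuclear respiratory factor 1 (NRF1), ETS-family factors including the GA-binding protein, and YY1.

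To show where these words stand, the windows from 250 bases before to 50 bases after the RefSeq start (GRCm38.p6) were searched on both strands for an NRF1 core (GCATGCGC), an ETS core (CCGGAAG), a YY1 core (ATGGCGGC) and the DRE core (GCGTG), and none of these words contains another. A window was found for 69 members. The NRF1 core was in 8 of them (11.6%, against 2.8% of all 27025 windows and 5.03% of the windows of genes tested in WT vehicle), the ETS core in 25 (36.2%, against 9.12% and 17.1%), the YY1 core in 12 (17.4%, against 2.38% and 4.61%) and the DRE core in 37 (53.6%, against 32.5% and 49.3%). In the 63 windows of genes for proteins of the cytosolic ribosome, the shares were 3.17%, 36.5%, 6.35% and 54% in this order. The windows printed are those of members with large changes over time, Mrpl52, Mrps24, Mrps18b and Mrpl41, and of Mrpl50 and Mrpl1, which did not fall. Capitals mark the words found, on either strand, and each window is printed 5′ to 3′ in the direction of the gene.
Mrpl52 (chr14:54426659-54426958, plus strand): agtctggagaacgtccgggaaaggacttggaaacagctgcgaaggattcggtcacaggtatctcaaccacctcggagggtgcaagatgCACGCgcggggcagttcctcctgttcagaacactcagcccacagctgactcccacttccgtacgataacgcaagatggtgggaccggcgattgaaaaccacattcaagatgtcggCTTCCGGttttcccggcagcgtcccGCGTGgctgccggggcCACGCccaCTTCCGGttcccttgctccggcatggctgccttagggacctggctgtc
Mrps24 (chr11:5707652-5707951, minus strand): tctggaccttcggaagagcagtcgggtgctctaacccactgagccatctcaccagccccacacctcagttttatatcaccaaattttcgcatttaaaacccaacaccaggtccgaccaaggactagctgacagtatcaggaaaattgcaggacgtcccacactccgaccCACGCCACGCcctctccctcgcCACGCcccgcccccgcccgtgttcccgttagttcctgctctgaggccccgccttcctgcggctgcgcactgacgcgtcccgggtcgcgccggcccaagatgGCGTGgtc
Mrps18b (chr17:35916391-35916690, minus strand): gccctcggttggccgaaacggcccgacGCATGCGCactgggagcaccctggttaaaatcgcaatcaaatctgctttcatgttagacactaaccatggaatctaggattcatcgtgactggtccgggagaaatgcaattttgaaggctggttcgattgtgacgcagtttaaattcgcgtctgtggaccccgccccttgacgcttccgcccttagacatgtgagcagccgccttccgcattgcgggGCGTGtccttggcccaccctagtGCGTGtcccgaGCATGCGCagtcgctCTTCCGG
Mrpl41 (chr2:24975049-24975348, minus strand): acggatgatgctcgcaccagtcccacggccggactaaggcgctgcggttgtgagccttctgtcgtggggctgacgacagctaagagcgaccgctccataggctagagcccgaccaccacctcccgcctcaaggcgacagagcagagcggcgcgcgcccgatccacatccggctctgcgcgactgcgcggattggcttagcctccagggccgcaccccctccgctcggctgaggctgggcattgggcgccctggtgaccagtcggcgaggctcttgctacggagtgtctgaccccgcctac
Mrpl50 (chr4:49521034-49521333, minus strand): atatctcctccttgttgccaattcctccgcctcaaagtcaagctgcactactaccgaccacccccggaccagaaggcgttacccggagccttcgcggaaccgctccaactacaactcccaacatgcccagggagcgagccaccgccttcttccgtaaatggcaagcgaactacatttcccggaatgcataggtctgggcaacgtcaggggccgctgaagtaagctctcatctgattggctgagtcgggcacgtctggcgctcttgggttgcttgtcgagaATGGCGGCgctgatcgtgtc
Mrpl1 (chr5:96209865-96210164, plus strand): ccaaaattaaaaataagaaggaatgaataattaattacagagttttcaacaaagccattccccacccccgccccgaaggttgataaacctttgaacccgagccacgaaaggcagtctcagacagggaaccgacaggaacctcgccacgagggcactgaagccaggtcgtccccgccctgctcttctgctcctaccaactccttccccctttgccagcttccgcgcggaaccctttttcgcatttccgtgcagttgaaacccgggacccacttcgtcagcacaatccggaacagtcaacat
Mrpl52 held 2 ETS cores and 3 DRE cores, Mrps24 held 4 DRE cores and none of the other words, and Mrps18b held an NRF1 core near each end of its window. Mrpl50 held a YY1 core just after its start, and Mrpl41 and Mrpl1 held none of the 4 words in these windows. In the GENCODE M21 annotation, 18 of the 78 members (23.1%) lay head to head with another protein-coding gene, with starts at most 1000 bases apart, against 9.73% of the 13508 protein-coding genes tested in WT vehicle. Among these pairs were Mrps12 with Sars2, the mitochondrial seryl-tRNA synthetase, and Mrpl50 with Zfp189 at 83 bases.

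Of the 78 members, 77 passed the filter on low counts in the comparisons, and Mrpl53 was listed at 0 in every library. A count of 0 allows up to 3 counts, or 0.0977 to 0.221 CPM at the depths of these libraries, counting error only. Genes held 13588848 to 30719161 pairs in a library, and 26243 to 104911 of these (median 48979) fell on the members, 0.165% to 0.487%. Per length of the principal transcript, the highest mean levels over all libraries were those of Mrpl52 (130 FPKM, fragments scaled by transcript length and library size, ± 58.6, SD over all libraries), Mrpl12 (82.3 FPKM ± 42.4), Mrpl38 (80.3 FPKM ± 35.2) and Mrps21 (79.8 FPKM ± 29.4), and these last 3 differed by less than their spread. The lowest above 0 were Mrpl1 (5.29 FPKM ± 1.94), Mrps25 (3.24 FPKM ± 1.32) and Mrpl47 (3.03 FPKM ± 1.18), so that the highest mean was 42.9 times the lowest. Mrpl12 is the counterpart of the bacterial stalk protein that recruits translation factors, Mrps21 and Mrps25 are small subunit proteins, and Mrpl1 forms part of the mobile stalk of the large subunit. The order depends on the length used, since with the summed length of all exons Mrpl34 (70.9 FPKM) and Mrpl12 (70.7 FPKM) were highest. For 21 members the sum of both strand counts was over 1.1 times the unstranded count, up to 5.54 times for Mrpl43 and 5.07 times for Mrpl47. Unstranded counting leaves out pairs shared with a gene on the other strand, so the levels of these members may be understated. They include Mrps18b (2.33), Mrpl48 (2.31), Mrpl18 (1.83) and Mrpl14 (1.44).

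The summed level of the members had its highest group mean at 8, 12 or 24 h and its lowest at 120 h in each of the 4 arms (WT vehicle, WT TCDD, DRE vehicle and DRE TCDD). It was not high throughout these hours, with means of 2273 CPM at 8 h in WT TCDD and 2779 CPM at 12 h in DRE vehicle. In WT vehicle libraries it was 3022, 3270, 2593 and 2921 CPM at 2 h, 3841, 3710, 3641 and 3461 CPM at 8 h, and 1582, 2181, 1870 and 1697 CPM at 120 h. The 120 h libraries lay below all those of 2 and 8 h. The mean at its highest was 2.00 times that at 120 h in WT vehicle (3663 ± 158 CPM at 8 h against 1832 ± 261 CPM, SD, n = 4) and 2.01 times in WT TCDD (3258 ± 655 CPM at 12 h against 1625 ± 207 CPM). It was 1.91 times in DRE vehicle (3568 ± 1270 CPM at 24 h against 1869 ± 394 CPM) and 2.49 times in DRE TCDD (4354 ± 915 CPM at 24 h against 1751 ± 152 CPM). The DRE vehicle libraries of 24 h fell at separate levels, 4396 and 4909 CPM against 2546 and 2421 CPM, and even the lower pair was above the 120 h libraries, which ran from 1524 to 2225 CPM. At 2 h the means were 2952, 2900, 3396 and 2711 CPM in the order of the arms above.

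**Figure D1:**
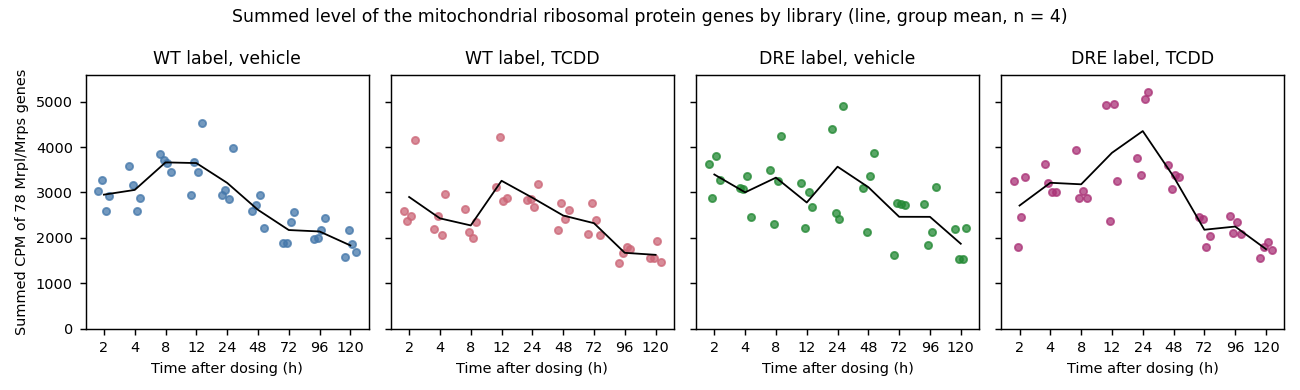
Summed CPM of the 78 genes (vertical axis) at each time after dosing in h (horizontal axis, steps not to scale) for the 4 arms. Points are libraries and the line joins group means (n = 4), which fall to between 1625 and 1869 CPM at 120 h in every arm.

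From 24 to 120 h the members fell in every arm. A member was called where its fold change reached 1.5 and its adjusted p (edgeR quasi-likelihood test, Benjamini-Hochberg over all genes tested) was under 0.05. In WT vehicle 53 of 77 members were lower at 120 h and 0 were higher, where 18.6% and 17% of all genes tested were lower and higher. In WT TCDD 55 were lower and 0 higher (background 16.7% and 15.7%), in DRE vehicle 44 and 0 (14% and 9.38%), and in DRE TCDD 66 and 0 (26.2% and 27.3%). The median log2 change of the members was −0.70, −0.82, −0.89 and −1.3 in these arms, beside 0.11, 0.08, 0.03 and 0.13 for all genes. Both subunits fell, with 34, 35, 28 and 41 of 48 Mrpl genes and 19, 20, 16 and 25 of 29 Mrps genes lower. Without the doubted libraries the DRE vehicle count was 51 (background 17.2% lower), and the counts of WT vehicle and WT TCDD were 53 and 55 as before. The 4 libraries of 120 h lay below the 4 of 24 h for 59 members in WT vehicle (23.1% of all genes), 62 in WT TCDD (20.7%), 20 in DRE vehicle (9.7%) and 65 in DRE TCDD (23.3%). The DRE vehicle count rested on single libraries, since it was 24 or 20 without replicate 1 or 4 of 24 h and 27 or 26 without replicate 2 or 3 of 120 h.

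The 4 arms share no library, but the labels do not say whether vehicle and TCDD libraries share animals or isolations. Lower in all 4 arms were 41 members, beside 10.8% of the 14949 genes tested in all 4 arms. A further 26 members were lower in 1 to 3 arms, and the log2 change was negative in all 4 arms for 72 of 77. The 10 members never called were Mrpl1, Mrpl32, Mrpl33, Mrpl39, Mrpl43, Mrpl47, Mrpl50, Mrps2, Mrps9 and Mrps36. The cytosolic ribosomal protein genes, 82 in number and the counterpart of these genes for the ribosomes outside mitochondria, were lower for 65, 74, 73 and 75 of the 78 tested, with median log2 changes of −0.97, −1.14, −1.23 and −1.68. Scaling by RLE in place of TMM moved the median of all genes by up to 0.13 on the log2 scale, and relative to all genes the members' median change in WT vehicle was −0.81 with TMM and −0.82 with RLE.

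**Figure D2:**
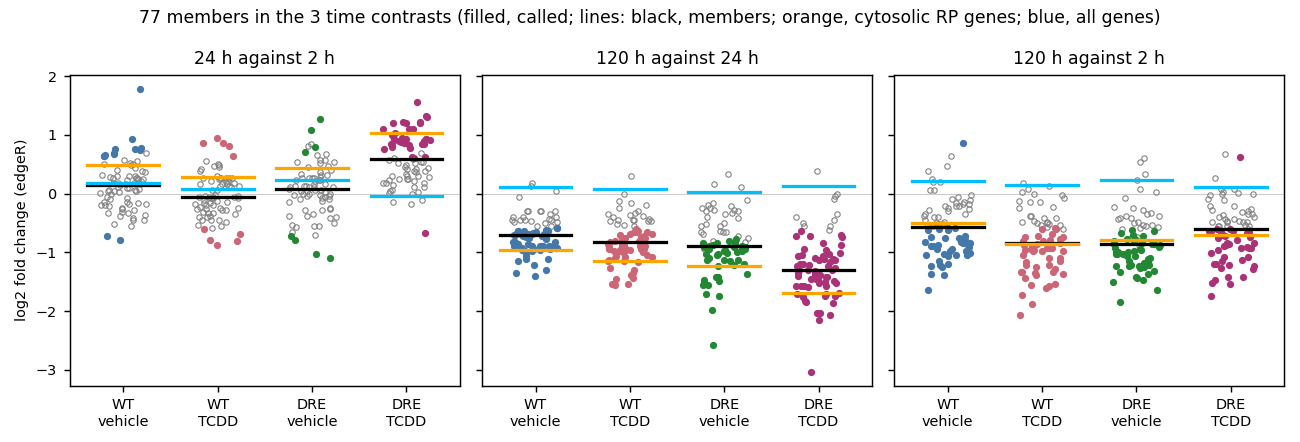
log2 fold change (edgeR, vertical axis) of the 77 tested members in each arm (horizontal axis) for 24 h against 2 h, 120 h against 24 h and 120 h against 2 h. Filled points are called, and lines give the medians of members (black), cytosolic ribosomal protein genes (orange) and all genes (blue), with 0 members called higher from 24 to 120 h.

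Over the whole culture, from 2 to 120 h, 37 members were lower and 1 higher in WT vehicle (background 24.5% and 33.4%), 51 and 0 in WT TCDD (25.2% and 28.1%), 49 and 0 in DRE vehicle (22.7% and 26.8%), and 40 and 1 in DRE TCDD (23.9% and 26%). The median log2 changes were −0.57, −0.85, −0.85 and −0.60, and those of all genes 0.21, 0.14, 0.24 and 0.11. In total 31 members were lower in all 4 arms, where 18.4% of all genes were. The 4 libraries of 120 h lay below the 4 of 2 h for 45, 47, 49 and 28 members, beside 25.3%, 22.9%, 23.2% and 20.2% of all genes. Members named below for a large change from 2 to 120 h in an arm were picked among called members without overlap there. Their lack of overlap in that arm thus follows from the rule. Without the doubted libraries 36, 42 and 52 members were lower in WT vehicle, WT TCDD and DRE vehicle, beside 23.9%, 22.6% and 23.2% of all genes.

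Mrpl41, a large subunit protein particular to mitochondria, fell most in each arm. In WT vehicle it was at 23.3, 39.1, 31.8 and 25.96 CPM at 2 h, 17.6, 16.6, 15.6 and 23.02 CPM at 24 h, and 7.31, 11.9, 8.99 and 9.002 CPM at 120 h, so that no 2 of these groups overlapped. Its log2 change from 2 to 120 h was −1.64 (SE 0.22, adjusted p = 1.26e-07) in WT vehicle, −2.07 (SE 0.27, adjusted p = 8.84e-08) in WT TCDD, −1.85 (SE 0.36, adjusted p = 1.54e-04) in DRE vehicle and −1.74 (SE 0.30, adjusted p = 1.13e-05) in DRE TCDD. Mrpl52, the member with the highest level, was at 53.7, 49.4, 50.8 and 96.1 CPM at 2 h and 21.1, 18.9, 24.1 and 18.2 CPM at 120 h in WT TCDD (log2 change −1.61, SE 0.22, adjusted p = 2.03e-07). These groups did not overlap, and Mrpl52 fell by 1.04 in WT vehicle, 1.63 in DRE vehicle and 1.51 in DRE TCDD on the log2 scale. Mrpl48 fell from 28.9, 29.8, 32.9 and 50.9 CPM to 8.82, 8.82, 12.0 and 9.21 CPM in WT TCDD (log2 change −1.88, SE 0.21, adjusted p = 3.68e-09), again without overlap.

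Mrpl14 and Mrpl17, counterparts of bacterial large subunit proteins, were lower at 120 h than at 2 h in the 4 arms. Mrpl14 was at 29.6, 37.4, 24.6 and 41.5 CPM at 2 h and at 10.8, 14.8, 12.5 and 11.5 CPM at 120 h in WT vehicle, groups that did not overlap (log2 change −1.38, SE 0.32, adjusted p = 4.64e-04). It had the largest change of any member from 24 to 120 h, in DRE TCDD, where it went from 110, 75.4, 55.9 and 54.5 CPM to 7.08, 13.4, 8.03 and 8.34 CPM (log2 change −3.03, SE 0.39, adjusted p = 1.04e-07). These groups did not overlap. Mrpl17 went from 106.6, 134.1, 88.8 and 119.5 CPM at 2 h to 38.8, 57.5, 44.1 and 42.5 CPM at 120 h in WT vehicle (log2 change −1.25, SE 0.19, adjusted p = 1.02e-06), without overlap.

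In the small subunit Mrps24 and Mrps18b fell in all 4 arms. Mrps24, the counterpart of bacterial S3 at the mRNA entry site, was at 92.01, 55.7, 75.8 and 59.96 CPM at 2 h and 35.6, 18.7, 18.2 and 30.9 CPM at 120 h in DRE vehicle (log2 change −1.46, SE 0.37, adjusted p = 0.00204). In WT TCDD its log2 change was −1.73 (SE 0.25, adjusted p = 7.83e-07), in WT vehicle −0.94 and in DRE TCDD −1.20. Mrps18b fell from 73.1, 41.05, 54.2 and 62.8 CPM to 16.2, 22.1, 21.02 and 23.5 CPM in DRE TCDD (log2 change −1.53, SE 0.23, adjusted p = 6.38e-07), and these groups did not overlap.

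Members chosen for their roles were followed from 24 to 120 h. Mrpl12, Mrpl10 and Mrpl11, which form the stalk and its base, fell in all 4 arms, by 1.41, 1.55, 1.98 and 2.16 on the log2 scale for Mrpl12 and by 0.93, 0.80, 0.97 and 1.41 for Mrpl10. Mrpl12 was at 135.04, 131.5, 123.3 and 181 CPM at 24 h and 43.3, 68.2, 48.3 and 48.3 CPM at 120 h in WT vehicle, without overlap. Mrpl58, a peptidyl-tRNA hydrolase built into the large subunit, and Mrps12, the counterpart of the bacterial decoding-site protein S12, were also lower in the 4 arms, with log2 changes of −0.92 to −1.75 and −0.64 to −1.20. Of the paralogs Mrps18a, Mrps18b and Mrps18c, each related to bacterial S18 and the first of them placed in the large subunit, Mrps18a and Mrps18b fell in all 4 arms. Mrps18c was lower in WT TCDD (log2 change −1.44) and DRE TCDD (−1.14), while its values of −0.45 in WT vehicle and −0.80 in DRE vehicle did not pass.

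Between 2 and 24 h the arms gave unequal counts. In WT vehicle 11 members were higher and 2 lower (background 25.8% and 20%), in WT TCDD 5 and 5 (20.6% and 21.2%), in DRE vehicle 4 and 4 (18% and 15.2%), and in DRE TCDD 36 and 1 (24.1% and 22.9%). The median log2 changes of the members were 0.14, −0.05, 0.08 and 0.60, and those of the cytosolic ribosomal protein genes 0.49, 0.29, 0.43 and 1.03. Whether the arms differ in this change was not tested. Without WT TCDD replicate 4 at 2 h and the other doubted libraries, WT TCDD had 13 members higher and 1 lower (background 21.1% and 20%), and DRE vehicle 5 and 4 (20.6% and 17.2%). The members' median log2 change in WT TCDD was then 0.20, beside 0.09 for all genes. With a covariate for the share of pairs on no gene, chosen after the data were seen, the order of the DRE arms turned. Then 13 members were higher and 1 lower in DRE TCDD and 18 and 2 in DRE vehicle. The share of all genes called in these fits was not taken. In DRE vehicle the count in both directions ran from 3 to 13 when 1 library was left out, the ends being those without replicate 1 and without replicate 4 of 24 h.

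Mrpl18 and Mrpl45 were higher at 24 h than at 2 h in all 4 arms. Mrpl18, whose bacterial counterpart binds 5S rRNA, was at 13.2, 7.73, 11.2 and 9.94 CPM at 2 h, 34.2, 35.5, 32.9 and 42.2 CPM at 24 h, and 16.04, 19.8, 19.7 and 17.8 CPM at 120 h in WT vehicle. The 3 groups did not overlap, and the log2 changes were 1.79 (SE 0.19, adjusted p = 1.64e-09) from 2 to 24 h and −0.93 (SE 0.18, adjusted p = 1.11e-04) from 24 to 120 h. It was the only member called higher at 120 h than at 2 h in WT vehicle (log2 change 0.86, SE 0.18, adjusted p = 1.67e-04), with values of −0.07, 0.33 and 0.09 in the other arms that did not pass. Mrpl45, which faces the inner membrane near the exit of the ribosome tunnel, went from 39.9, 46.6, 28.0 and 46.4 CPM at 2 h to 56.9, 71.6, 65.7 and 80.7 CPM at 24 h and 30.3, 41.6, 35.8 and 27.4 CPM at 120 h in WT vehicle. The 24 h libraries lay above all of the others. Mrps2 was lower at 24 h than at 2 h in all 4 arms, by 0.79, 0.88, 1.09 and 0.67 on the log2 scale, and its later values of −0.40, −0.16, −0.24 and −0.55 did not pass. It was at 80.4, 70.1, 66.3 and 83.4 CPM at 2 h and 43.2, 41.1, 44.1 and 44.8 CPM at 24 h in WT vehicle, without overlap.

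Some members were not called lower. From 2 to 120 h, 20 were called lower in no arm, and for 12 the log2 change was not below 0 in every arm. Mrpl50 was at 27.1, 31.6, 31.6 and 26.9 CPM at 2 h and 39.6, 46.7, 54.5 and 47.7 CPM at 120 h in DRE TCDD, groups that did not overlap (log2 change 0.63, SE 0.19, adjusted p = 0.00556). Its values in the other arms were 0.47, 0.18 and 0.53 in WT vehicle, WT TCDD and DRE vehicle and did not reach the fold threshold. The DRE TCDD call was lost without replicate 1 or 4 of 2 h or replicate 3 of 120 h. Mrpl1 had log2 changes of 0.64, 0.12, 0.61 and 0.08 from 2 to 120 h, none of which passed, and Mrps9 of 0.06, −0.02, −0.22 and −0.00. Mrps36, since assigned to the alpha-ketoglutarate dehydrogenase complex, had log2 changes of −0.30, −0.44, 0.11 and −0.61 from 24 to 120 h and passed in no arm. The correlation across all libraries between a member and the mean of the others was over 0.5 for 66 members and was −0.35 for Mrpl1, −0.30 for Mrps9, −0.22 for Mrpl50 and 0.01 for Mrpl33. Among members taken in pairs the median r was 0.62, and 0.60 after group means were removed. These libraries share the scaling and the course of the culture.

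**Figure D3:**
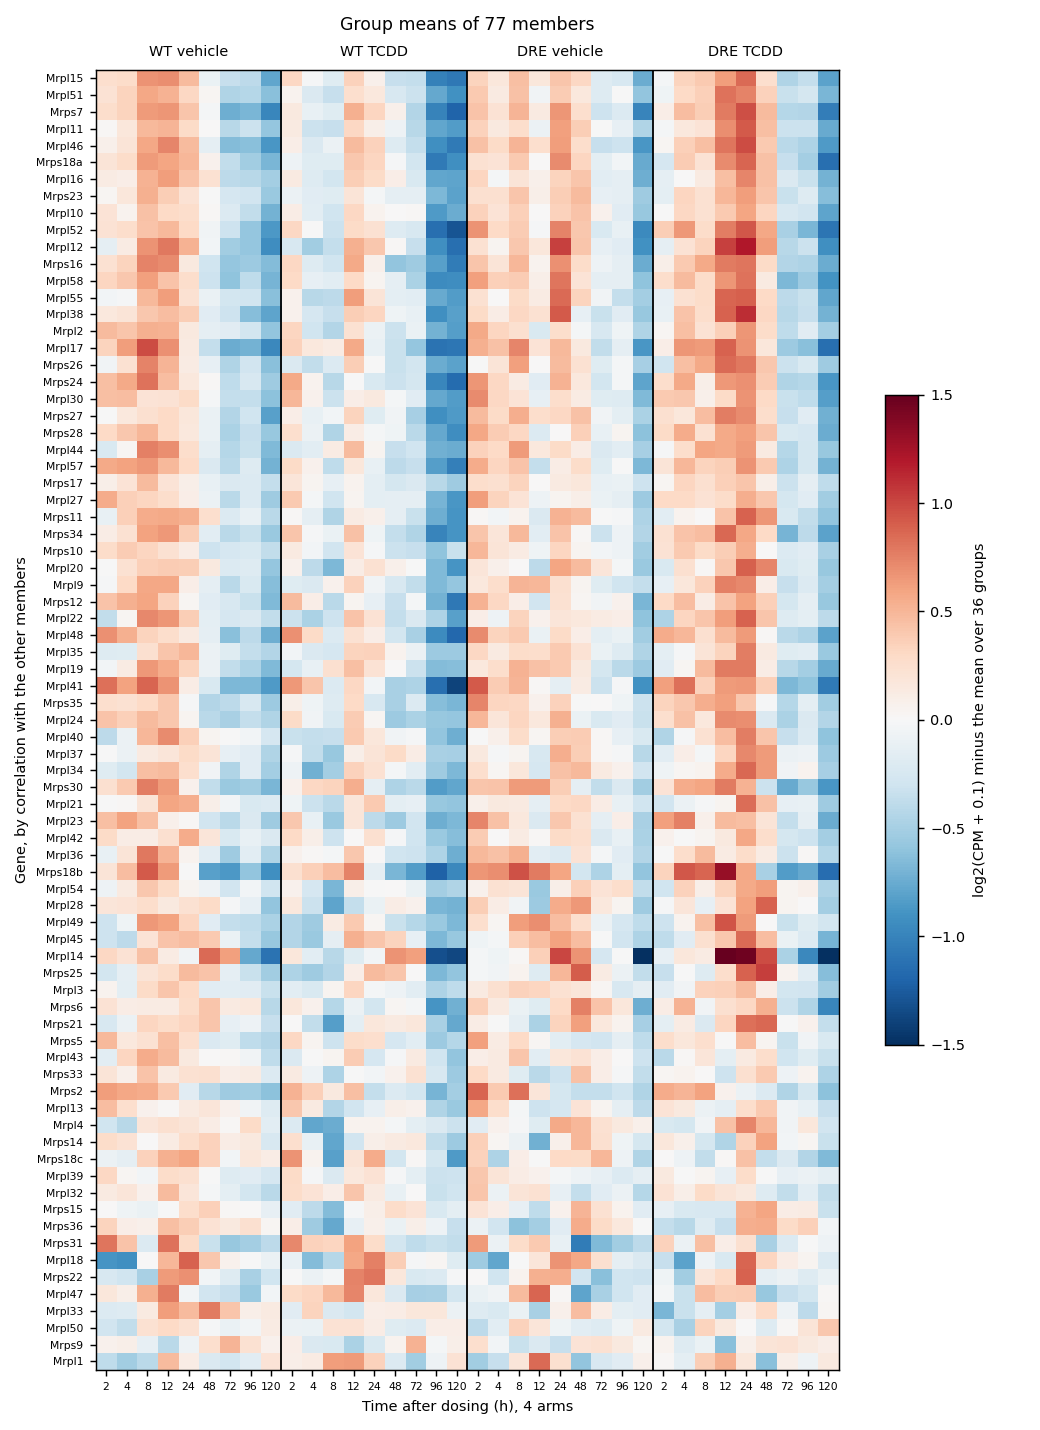
Group means of log2(CPM + 0.1) for 77 members (vertical axis, ordered by their correlation with the other members), each minus its mean over the 36 groups, by arm and time after dosing in h (horizontal axis). Most genes are below their own mean (blue) at 120 h in every arm, and Mrpl1, Mrps9 and Mrpl50 at the bottom are not.

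Other measures moved with time beside the members. The share of uniquely mapped pairs on no gene had a median of 5.23% at 2 h, 5.90% at 24 h and 8.90% at 120 h (16 libraries each), and its r with the summed level of the members was −0.63 over all libraries and −0.55 within groups. With this share as a covariate, an alternative added after the data were seen, 20, 55, 40 and 39 members were lower from 24 to 120 h in WT vehicle, WT TCDD, DRE vehicle and DRE TCDD, and 13, 49, 13 and 30 from 2 to 120 h. The share of all genes lower in these fits was not taken, so these counts have no background of their own. In the fits without the covariate 24.5% and 22.7% of all genes were lower from 2 to 120 h in WT vehicle and DRE vehicle. The summed hepatocyte markers (8 of 8 lower at 120 h than at 2 h) had medians of 168384, 32091 and 8677 CPM at 2, 24 and 120 h, with 109356 to 238703 CPM at 2 h and 3228 to 16510 CPM at 120 h. Macrophage markers (8 of 8 lower) went from 120 to 584 CPM to 17.4 to 128.4 CPM, and endothelial markers (6 of 6 lower) from 218 to 512 CPM to 32.6 to 172.4 CPM. Stellate and fibroblast markers (5 of 6 higher) went from 4.64 to 13.98 CPM to 23.5 to 302 CPM, and cholangiocyte markers (4 of 5 higher) from 62.1 to 148 CPM to 315 to 1200 CPM. Lymphocyte markers stayed at or under 2.13 CPM at these times, with Ms4a1, Nkg7 and Cd3e at 0 in most libraries. The part of these in the fall of the members was not tested, and in bulk RNA fewer cells of a type and less RNA per cell cannot be told apart.

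Other genes of the same pathway were followed from 2 to 120 h. Of the mRNAs of the mitochondrial genome, which this ribosome translates, 11 of 13 were tested and 11, 11, 10 and 10 were lower at 120 h than at 2 h in the 4 arms, with medians of −2.43, −2.24, −2.49 and −2.43 on the log2 scale. In WT vehicle mt-Cytb, a subunit of complex III, went from 8752 ± 1281 to 1324 ± 359 CPM and mt-Nd1, a subunit of complex I, from 9828 ± 2520 to 1561 ± 517 CPM (SD, n = 4). Of 5 mitochondrial ribosome proteins under other symbols, 1 was lower in each arm, in WT vehicle Aurkaip1, at 84.2 ± 7.82 CPM at 2 h and 41.1 ± 10.8 CPM at 120 h. Of 24 assembly genes, 6, 7, 9 and 6 were lower and 4, 1, 2 and 2 higher. In WT vehicle Ddx28, an RNA helicase needed to build the large subunit, changed by −1.65 and the GTPase gene Gtpbp10 by 1.90 on the log2 scale. Of 11 translation factors tested, 4, 5, 5 and 4 were lower and 2, 1, 1 and 1 higher. The elongation factor gene Gfm1 fell by 1.31 and the initiation factor gene Mtif2 rose by 1.71 on the log2 scale in WT vehicle. Of 20 tRNA synthetase genes 6, 5, 7 and 6 were lower and 1, 2, 1 and 2 higher. Of 10 transcription and RNA processing genes tested 2, 3, 3 and 2 were lower and 0 higher, and of 9 regulators of mitochondrial genes 4, 4, 4 and 3 were lower and 3, 1, 1 and 1 higher. These counts stand beside 22.7% to 25.2% of all genes lower and 26% to 33.4% higher. Among the regulators in WT vehicle Myc fell by 1.95 and Ppargc1a, a coactivator of mitochondrial biogenesis, rose by 1.96 on the log2 scale, from 1.31 ± 0.979 to 4.92 ± 1.68 CPM.

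At 8 h in WT 39 members were lower and 2 higher under TCDD than in vehicle (background 13.6% and 23.8% of 12392 genes). Without the fold threshold 50 were lower and 2 higher (20.2% and 25.3%), 70 of 77 had a negative log2 change, and the median was −0.59 beside 0.00 for all genes and −0.73 for the cytosolic ribosomal protein genes, of which 56 of 77 were lower. Summed over the members, WT vehicle had 3841, 3710, 3641 and 3461 CPM and WT TCDD 2635, 2126, 1992 and 2340 CPM, without overlap. Without WT TCDD replicate 1 there were 42 lower and 2 higher (15.4% and 24.1%).

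The largest falls at 8 h in WT among members whose groups did not overlap were those of Mrps24, Mrps18c, Mrpl54 and Mrpl28. Mrps24 was at 99.1, 92.5, 61.7 and 63.01 CPM in vehicle and 49.4, 33.2, 21.6 and 30.1 CPM in TCDD libraries (log2 change −1.12, SE 0.24, adjusted p = 0.00330). Mrps18c was at 5.26, 6.68, 6.41 and 4.48 CPM and 3.03, 1.56, 2.04 and 3.36 CPM (−1.07, SE 0.33, adjusted p = 0.0197), and lost its call without vehicle replicate 2 or TCDD replicate 2 or 3. Mrpl54 was at 58.4, 42.9, 40.8 and 36.4 CPM and 29.8, 18.2, 15.4 and 20.2 CPM (−0.98, SE 0.22, adjusted p = 0.00397). For each of them every TCDD library was below every vehicle library, as were 24.6% of all genes tested. Mrpl28, the counterpart of bacterial L28, was at 57.5, 60.6, 59.8 and 51.4 CPM and 30.5, 30.8, 22.2 and 26.02 CPM (−0.94, SE 0.16, adjusted p = 0.00139). Mrpl12 was at 158, 156, 177 and 144.5 CPM and 93.9, 72.1, 58.97 and 85.7 CPM, a log2 change of −0.91. The members that were higher were Mrpl1, at 6.03, 16.4, 16.2 and 16.3 CPM in vehicle and 19.8, 26.7, 33.7 and 32.5 CPM in TCDD libraries (1.17, SE 0.30, adjusted p = 0.00815), and Mrps31 (0.64), whose groups overlapped.

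**Figure D4:**
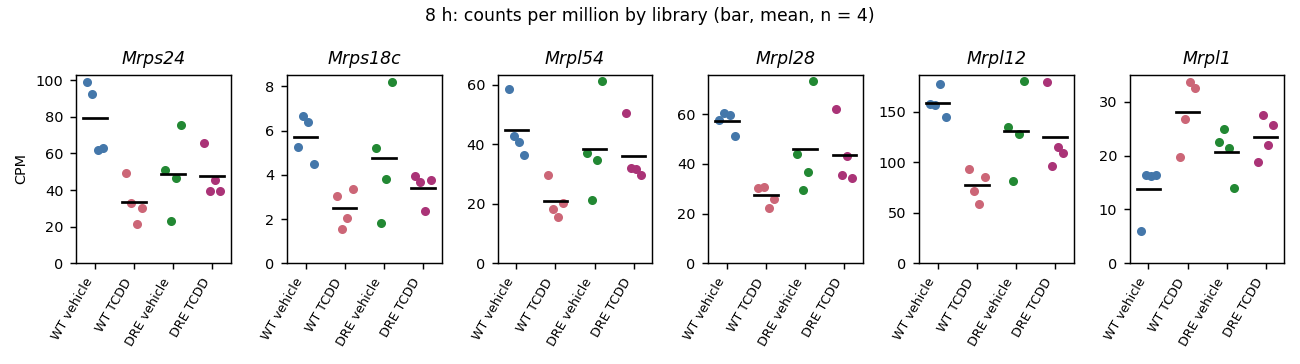
CPM at 8 h (vertical axis, from 0) of Mrps24, Mrps18c, Mrpl54, Mrpl28, Mrpl12 and Mrpl1 in the 4 libraries of each arm (horizontal axis). Points are libraries and bars the group means; WT TCDD libraries lie below WT vehicle for the first 5 genes and above for Mrpl1, and the DRE arms overlap for Mrps24.

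Several measures moved with TCDD in the same libraries. The share of unique pairs on no gene was 4.89% to 5.99% in WT vehicle and 8.36% to 21.9% in WT TCDD libraries at 8 h. With it as a covariate 47 members were lower and 1 higher. After removal of each library's trend with GC content 27 were lower and 0 higher (median −0.39), and with 1 surrogate variable estimated from all WT libraries 0 were called (median −0.19). The share of all genes called under these alternatives was not taken. Hepatocyte markers summed to 80328 to 97941 CPM in vehicle and 65876 to 71480 CPM in TCDD libraries, and macrophage markers to 205 to 268 CPM and 70.4 to 148 CPM, both without overlap. Endothelial (98.3 to 157 CPM and 89.3 to 141.8 CPM), stellate and fibroblast, cholangiocyte and lymphocyte markers overlapped between these groups, lymphocyte markers being at 0 to 0.387 CPM and 0.190 to 2.25 CPM. Their part in the fall was not tested. In the pathway lists, 6 of 10 mitochondrial transcription and RNA genes were higher under TCDD, among them Tfam, which coats mitochondrial DNA (10.97 ± 4.72 to 24.4 ± 8.39 CPM), and Tfb2m (7.84 ± 2.79 to 19.7 ± 7.27 CPM). Assembly genes were split, 4 higher and 3 lower of 24, as were translation factors, 2 and 2 of 11, with the elongation factor gene Tufm at 182 ± 9.12 CPM in vehicle and 100.6 ± 15.7 CPM in TCDD libraries. Of 20 tRNA synthetases 2 were higher and 3 lower, of 9 regulators 3 and 1, of 5 ribosome proteins under other symbols 1 and 2, and of 11 mitochondrial mRNAs 3 and 0.

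At 96 h in WT 2 members were lower under TCDD and 0 higher (background 5% and 10.1%). Mrps6 was at 10.7, 11.8, 9.14 and 12.1 CPM in vehicle and 6.22, 3.11, 6.22 and 5.44 CPM in TCDD libraries (log2 change −0.96, SE 0.21, adjusted p = 0.00668), and Mrps24 at 33.7, 37.0, 36.5 and 43.9 CPM and 22.0, 17.3, 24.3 and 27.5 CPM (−0.63, SE 0.14, adjusted p = 0.00662). Neither pair of groups overlapped. Without the fold threshold 26 were lower and 1 higher (16.1% and 16.7%), the median of the members was −0.29, and without the doubted libraries 4 were lower, beside 5.75% of all genes. The call of Mrps24 was lost without vehicle replicate 4 or TCDD replicate 2, and with 1 surrogate variable 0 members were called.

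At the other 7 times in WT and at all 9 in DRE 0 members were called under TCDD. In WT the share of all genes called, in either direction, was 0% for 2, 4 and 72 h, 0.0321% for 12 h, 0.373% for 24 h, 0.00763% for 48 h and 1.46% for 120 h. Of the 77 members 2, 10, 0, 3, 0, 1 and 20 had an unadjusted p under 0.05 at 2, 4, 72, 12, 24, 48 and 120 h. Of all genes 1.37%, 17.1%, 2.06%, 2.63%, 12.3%, 2.57% and 16.1% did, in the same order. In DRE the share of all genes called was 0% for 2 and 4 h, 0.106% for 8 h, 0.024% for 12 h, 0.016% for 24 h, 0.404% for 48 h, 1.13% for 72 h, 0.0793% for 96 h and 0.633% for 120 h. The members with an unadjusted p under 0.05 numbered 0, 1, 0, 22, 0, 1, 2, 2 and 2 in that order. Beside them stood 14.2%, 2.4%, 4.78%, 9.53%, 1.29%, 6.62%, 10.7%, 7.2% and 7.44% of all genes. DRE at 12 h had a positive median, 0.45, with 65 of 77 members above 0. Members lay mostly to one side of 0 at other times without calls as well. Below 0 were 74 in WT at 120 h (median −0.26), 68 in WT at 12 h (−0.17), 71 in DRE at 72 h (−0.20) and 65 in DRE at 2 h (−0.14). Above 0 were 66 in DRE at 24 h (0.21). At 8 h in DRE the summed level was 3495, 2313, 3247 and 4253 CPM in vehicle and 3937, 2871, 3039 and 2873 CPM in TCDD libraries, which overlapped. Without the doubted replicate 1 of DRE vehicle at 72 h, 4 members were called at 72 h, Mrps6 (−0.99), Mrpl58 (−0.74) and Mrpl20 (−0.61) lower and Mrps22 (0.62) higher in log2 change, with 4.85% of genes lower and 9.56% higher. The members with an unadjusted p under 0.05 then numbered 27 (median log2 change −0.33, beside −0.001 for all genes). In WT at 2 h they numbered 11 without the doubted TCDD replicate 4 (median −0.11, beside 0.006 for all genes). The share of all genes with such a p was not taken in these fits without doubted libraries, so neither count has a background.

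**Figure D5:**
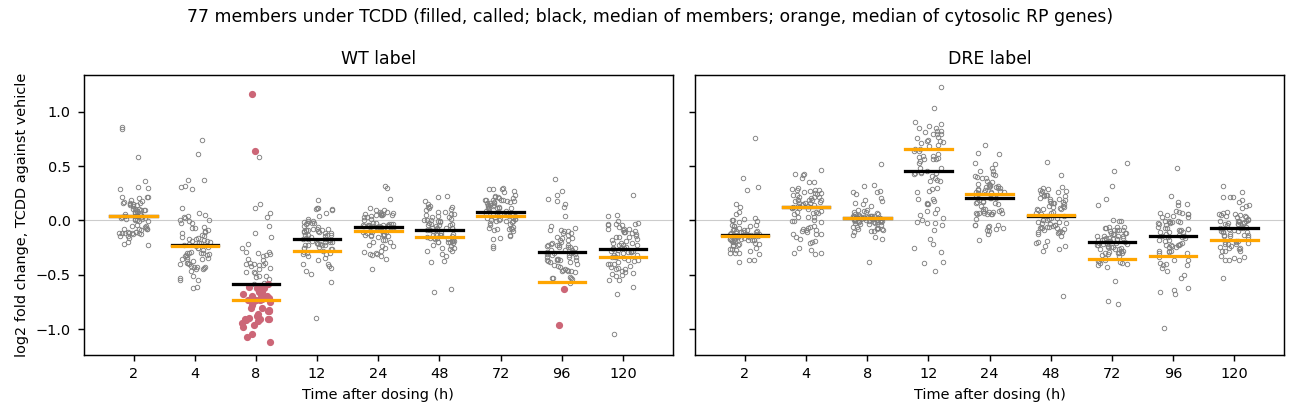
log2 fold change of TCDD against vehicle (vertical axis) for the 77 tested members at each time after dosing in h (horizontal axis), for the WT and DRE labels. Filled points are called, and lines are medians of members (black) and of cytosolic ribosomal protein genes (orange); filled points stand at 8 h and 96 h in WT.

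The difference between the labels in the response to TCDD was tested as an interaction at each time, and 0 members passed at any of the 9 times, with edgeR and with DESeq2. The share of all genes that passed was 0% at 7 times, 0.00715% at 48 h and 0.00695% at 72 h. From 2 to 120 h the members with an unadjusted p under 0.05 numbered 2, 14, 25, 28, 1, 0, 0, 1 and 6. Of all genes 0.83%, 8.98%, 15.9%, 7.25%, 6.24%, 1.25%, 2.09%, 13.1% and 3.15% had such a p, in the same order. The median of the DRE response minus the WT response was −0.19, 0.34, 0.49, 0.65, 0.33, 0.16, −0.30, 0.11 and 0.22 on the log2 scale. Without the doubted libraries 0 members passed at 2, 4, 8, 48, 72 and 96 h. Those with an unadjusted p under 0.05 then numbered 1, 12, 43, 0, 22 and 4. The median was then 0.69 at 8 h and −0.48 at 72 h, beside 0.004 and −0.002 for all genes. The share of all genes with such a p was not taken in these fits. With no member passing, the fall at 8 h in WT was not shown to differ from the response in DRE.

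In vehicle, the DRE and WT labels differed for 1 member at 1 time. Mrpl57 at 12 h was at 31.96, 52.1, 38.1 and 49.5 CPM in WT and 26.8, 23.1, 22.7 and 23.2 CPM in DRE libraries (log2 change −0.78, SE 0.18, adjusted p = 0.0447). The groups did not overlap, 68 of 77 members were lower in DRE (median −0.38), and 3.68% of all genes passed at 12 h, against 0.0576% at 8 h and 0% at the other 7 times. The count at 12 h was 16 lower with DESeq2, 10 lower when adjusted for pairs on no gene, and 0 to 9 when 1 library was left out, and the call of Mrpl57 was lost without replicate 2, 3 or 4 of WT or replicate 1, 3 or 4 of DRE. Without the doubted libraries 0 members passed at 4, 48, 72 and 96 h. At 72 h those with an unadjusted p under 0.05 then numbered 18, against 1 with all libraries. The median there was 0.32, beside −0.02 for all genes, and the share of all genes with such a p was not taken. Label and isolation cannot be told apart.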

How the data were processed

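RNA-Seq was made by the authors from primary mouse hepatocytes in 144 libraries. According to the submitters' processing notes, reads were checked with FastQC 0.11.3 (the methods give another version), trimmed with Trimmomatic 0.39 and mapped with STAR 2.7 to GRCm39, and the deposited files hold raw counts of pairs per gene. The unstranded column was used, in which a pair that overlaps genes on both strands counts for neither. The 4 lines that name no gene held 16.8% to 48.0% of pairs (median 24.2%) and were left out, and unmapped pairs made up 1.96% to 23.6%. Totals on genes were 13588848 to 30719161 (median 18011825). Symbols, transcript lengths and GC content came from GENCODE M21.

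Groups were taken from the labels. Counts were fitted with edgeR 4.0.16 (R 4.3.3; TMM scaling, filterByExpr, robust quasi-likelihood test) over all genes: all times of an arm for time contrasts, and the libraries of the comparison's time for TCDD, interaction and label comparisons as fixed in the design. P-values were adjusted by Benjamini-Hochberg, and a call needed an adjusted p under 0.05 and a fold change of 1.5. The code was tested on simulated data. Alternatives were RLE scaling, no filter, DESeq2 1.42.0, no fold threshold, removal of GC trends, 1 surrogate variable (sva 3.50.0), 1 fit per label, and leaving out each library. A covariate for the share of pairs on no gene was planned for TCDD comparisons and added for the others after the data were seen, as was leaving out the 9 doubted libraries.

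Members named were the 4 called members with the largest change in each direction whose groups did not overlap (all called, up to 5 a direction, where under 10 were called), the 4 highest and 4 lowest by mean FPKM, and Mrpl10, Mrpl11, Mrpl12, Mrpl58, Mrps12, Mrps18a, Mrps18b and Mrps18c. Mrpl20, Mrpl32, Mrpl33, Mrpl34, Mrpl39, Mrpl43, Mrpl45, Mrps2, Mrps9, Mrps22, Mrps31 and Mrps36 were named after their values were seen. Members and lists were chosen with earlier results of these data known. Promoter windows are RefSeq sequence of GRCm38.p6, and other coordinates were not used here.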

Additional observations from a re-analysis of the deposited data

Results flagged for a closer look

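In groups of 4 libraries, a library was singled out where its gap to the nearest other, divided by the range of the group, passed Dixon's critical value. About 1 in 20 independent sets would meet this by chance, but the sets checked share libraries, and the named members were picked for their change. Checked were the summed level in each of the 36 groups and the named members in the groups compared. Of these 88 sets of 4 values, 11 met the rule. For the summed level of the members these were WT TCDD 2 h replicate 4 (4154 CPM, others 2379 to 2595 CPM), DRE vehicle 72 h replicate 1 (1628 CPM, others 2715 to 2762 CPM) and DRE TCDD 8 h replicate 1 (3937 CPM, others 2871 to 3039 CPM).

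WT TCDD 2 h replicate 4 was also far from the others for Mrpl52 (96.1 CPM, others 49.4 to 53.7 CPM) and Mrps24 (108.3 CPM, others 49.3 to 56.8 CPM). Mrpl52 was low in DRE TCDD 120 h replicate 4 (21.6 CPM, others 24.1 to 24.4 CPM) and in DRE vehicle 2 h replicate 2 (67.3 CPM, others 83.9 to 85.98 CPM). Mrpl14 was high in DRE vehicle 2 h replicate 3 (35.9 CPM, others 22.1 to 24.0 CPM) and Mrpl48 in WT TCDD 120 h replicate 3 (12.0 CPM, others 8.82 to 9.21 CPM). Mrpl1 was low in WT vehicle 8 h replicate 1 (6.03 CPM, others 16.2 to 16.4 CPM), and Mrpl57 was high in DRE vehicle 12 h replicate 1 (26.8 CPM, others 22.7 to 23.2 CPM). The cause was not tested.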

How the results depend on the processing

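Of 905 alternative values for 16 counts of called members, 857 were within 1.5 times the count reported, and of 876 for 26 named member and comparison pairs 846 kept their call, 30 lost it and 0 turned direction. Without a fold threshold the counts were 26 and 16 for 24 h against 2 h in WT vehicle and WT TCDD and 79 for TCDD in WT, summed over times. Without the filter they were 3, 28 and 26 for 24 h against 2 h and 120 h against 24 h in DRE vehicle and 120 h against 2 h in DRE TCDD, and 4 for the label. With a covariate for pairs on no gene they were 20 and 14 for 24 h against 2 h in DRE vehicle and DRE TCDD, 20 and 39 for 120 h against 24 h in WT vehicle and DRE TCDD, 15 and 14 for 120 h against 2 h in WT vehicle and DRE vehicle, and 10 for the label. With GC trends removed they were 15 for 24 h against 2 h in DRE vehicle and 5 for the label, with RLE 2 and with DESeq2 16 for the label, and with 1 surrogate variable 2 for TCDD in WT. Without the doubted libraries TCDD in DRE gave 4. Leaving out 1 library gave, for WT vehicle, WT TCDD, DRE vehicle and DRE TCDD, 10 to 16, 8 to 12, 3 to 13 and 30 to 44 for 24 h against 2 h, 37 to 55, 46 to 56, 20 to 51 and 63 to 68 for 120 h against 24 h, and 33 to 45, 47 to 55, 38 to 53 and 28 to 50 for 120 h against 2 h. It gave 31 to 48 for TCDD in WT (43 as reported), 0 to 4 for TCDD in DRE (4 without vehicle 72 h replicate 1), 0 to 0 for the interaction and 0 to 9 for the label (9 without WT 12 h replicate 1, 2 without DRE 12 h replicate 2, 0 without any of the other 12 h libraries). The cause was not tested. Except where a background is printed above, the share of all genes called under an alternative was not taken. No paired analysis was possible because the labels give no replicate numbers, and those used here only follow the order of the samples. Mrpl53 had 0 counts in every library, and why was not tested.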
